A study of Mus musculus with 6 samples.

Results

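The cytosolic ribosomal protein genes were examined in mouse Hepa1-6 tumors with and without sorafenib (Sora). A gene was a member when its symbol had the form of a ribosomal protein symbol (Rpl or Rps, a number, and at most a short suffix such as a, l, x, or l1) or was Rplp0, Rplp1, Rplp2, or Rpsa, and rows whose symbol ends in -ps and a number, which marks pseudogenes, were left out. Of the 26167 genes in the deposited tables, 83 were members, namely 46 core proteins of the large subunit (with the 3 stalk genes Rplp0, Rplp1, and Rplp2), 30 core proteins of the small subunit, and 7 paralogs (Rpl3l, Rpl6l, Rpl7l1, Rpl22l1, Rpl32l, Rpl39l, and Rps27l). The rule used symbols only and no measured value. All 83 members had at least 10 reads in at least 3 tumors and entered the test.

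The cytosolic ribosome is built from a small subunit that reads the mRNA and a large subunit that forms the peptide bond, each made of ribosomal RNA and many small proteins. Cells make these proteins in near-equal numbers, and most of the mRNAs start with a run of pyrimidines, the 5′ terminal oligopyrimidine (TOP) motif, through which mTOR signaling and the binding protein Larp1 set their translation. The mRNAs are among the most abundant of growing cells. RNA-seq counts mRNA and does not measure how well it is translated.

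RNA was sequenced from 3 control tumors (numbered 1, 3, and 4 in the labels) and 3 Sora-treated tumors (numbered 2, 3, and 4). Hepa1-6, spelled Hep1-6 in the labels, is a hepatoma line from a C57L mouse that was placed subcutaneously in female C57BL/6J mice, immunocompetent and 6 to 8 weeks old. Sora, an inhibitor of RAF and receptor tyrosine kinases, was given ip at 10 mg/kg on days 9, 11, 13, and 15, and what the control mice received was not described. The tumors grew from 1 cell line outside the liver, and whole tumor tissue was sequenced, so a change in the share of a cell type and a change in its RNA per cell cannot be told apart. The labels do not say that each tumor came from its own mouse, and p-values therefore measure the spread between these tumors.

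Each library held 31073830 to 36205814 counted reads, and the lowest count of any core member in any tumor was 3875 reads (Rpl34). The count of Sora-treated tumor 4 was computed from its FPKM, since the count table used here holds the other 5 tumors. The hepatoma markers Afp and Alb were high in both groups, at 878 and 3200 CPM (counts scaled to the library total after TMM adjustment) in control tumors and 828 and 2190 CPM in Sora-treated tumors. Trf was also high, at 1620 and 1710 CPM in control and Sora-treated tumors. Ttr was low, at 9.42 and 2.13 CPM, as were Apoa2 (1.25 and 1.36) and Fgg (1.11 and 0.662). Of the 11 hepatoma markers tested, Alb and Ttr were down-regulated in edgeR (log2 fold changes -0.55 and -2.15, adjusted p 0.041 and 0.00555) and Hnf4a and Apoa1 up-regulated (0.80 and 1.03, adjusted p 0.013 and 0.047). When 1 tumor was left out in turn, the call of Ttr held each time, that of Hnf4a was lost without control tumor 4 or Sora-treated tumor 4, that of Alb without 4 of the 6 tumors, and that of Apoa1 without 5. The estimate for Apoa1 was 0.65 without Sora-treated tumor 4, and Apoa1 was not called in DESeq2 (adjusted p 0.0627) or limma voom (0.0806).

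The starts of the genes were read from RefSeq (GRCm38.p6), which had a promoter entry for 62 of the 83 members. A TOP start was scored when the annotated first base of the transcript was a C followed by at least 4 bases that were C or T on the sense strand. Of the 62 members, 14 had a TOP start (22.6%), against 3.01% of 27025 genes with an entry. A run of at least 8 C or T bases that reached within 10 bases of the start was found in 30 of the 62 members (48.4%) and in 16.1% of all genes. The TOP count describes the annotated first base, which can lie a few bases from the base at which transcription begins. None of the 69 mitochondrial ribosomal protein genes with an entry had a TOP start, and 2 of 35 translation factor genes (5.71%) and 1 of 90 ribosome biogenesis genes (1.11%) did.
The windows of 9 members are shown because they span this feature from a long run at the start to none. Each window holds 15 bases before the annotated start and 15 from it, 5′ to 3′ on the sense strand, with the longest pyrimidine run in capitals. Rps6, Rpl15, Rpl35, Rplp2, and Rps27 have a TOP start, in a run that covers the annotated first base. Rps27l, Rpl39, and Rpl39l have a run that does not cover that base, and Rpl7l1 has no run of note.
Rps6 (chr4:86857353-86857382, minus strand): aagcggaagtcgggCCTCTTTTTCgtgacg
Rpl15 (chr14:18270972-18271001, minus strand): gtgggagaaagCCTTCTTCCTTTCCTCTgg
Rpl35 (chr2:39005117-39005146, minus strand): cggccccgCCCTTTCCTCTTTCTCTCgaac
Rplp2 (chr7:141447636-141447665, plus strand): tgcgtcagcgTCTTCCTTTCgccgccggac
Rps27 (chr3:90213634-90213663, minus strand): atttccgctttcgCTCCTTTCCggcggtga
Rps27l (chr9:66946071-66946100, plus strand): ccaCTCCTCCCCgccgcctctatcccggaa
Rpl39 (chrX:37085208-37085237, minus strand): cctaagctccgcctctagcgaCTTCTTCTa
Rpl39l (chr16:10170213-10170242, plus strand): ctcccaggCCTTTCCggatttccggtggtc
Rpl7l1 (chr17:46782642-46782671, minus strand): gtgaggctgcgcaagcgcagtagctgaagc
Rps27 and its paralog Rps27l thus differed in this feature, while Rpl39 and Rpl39l both lacked a TOP start. No match says only that these letters are absent from the window.

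No cytosolic ribosomal protein gene was up-regulated or down-regulated in Sora-treated tumors. In edgeR's quasi-likelihood test, 0 of 83 members passed an adjusted p of 0.05 in either direction, while 1.94% of the 16513 genes tested were up-regulated and 1.34% down-regulated (3.29% in all). None had an unadjusted p under 0.05 in edgeR either, against 17.2% of all genes, and DESeq2 had 0 members called (7.71% of all genes) and 1 member, Rps2, under that unadjusted value (17.5% of all genes). The values of the 2 groups overlapped in CPM for each of the 83 members, whereas they did not overlap for 22.2% of all genes.

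The estimates lay close together and mostly just above 0. The log2 fold change was above 0 in 78 of 83 members (94.0%), against 49.9% of all genes, with a median of 0.09 beside 0 for all genes. Among the 76 core members it ran from -0.02 for Rps24 to 0.22 for Rps2. The large subunit had a median of 0.09, the small subunit 0.09, the 3 stalk genes 0.18, and the 7 paralogs 0.14.
The 95% intervals of the core members had half-widths of 0.19 to 0.36 on the log2 scale (median 0.24), and their outer limits were -0.26 for Rps24 and 0.57 for Rps14. On a linear scale these limits are 0.838-fold and 1.49-fold, so a change of 2-fold in either direction lay outside the interval of every core member.

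**Figure D1:**
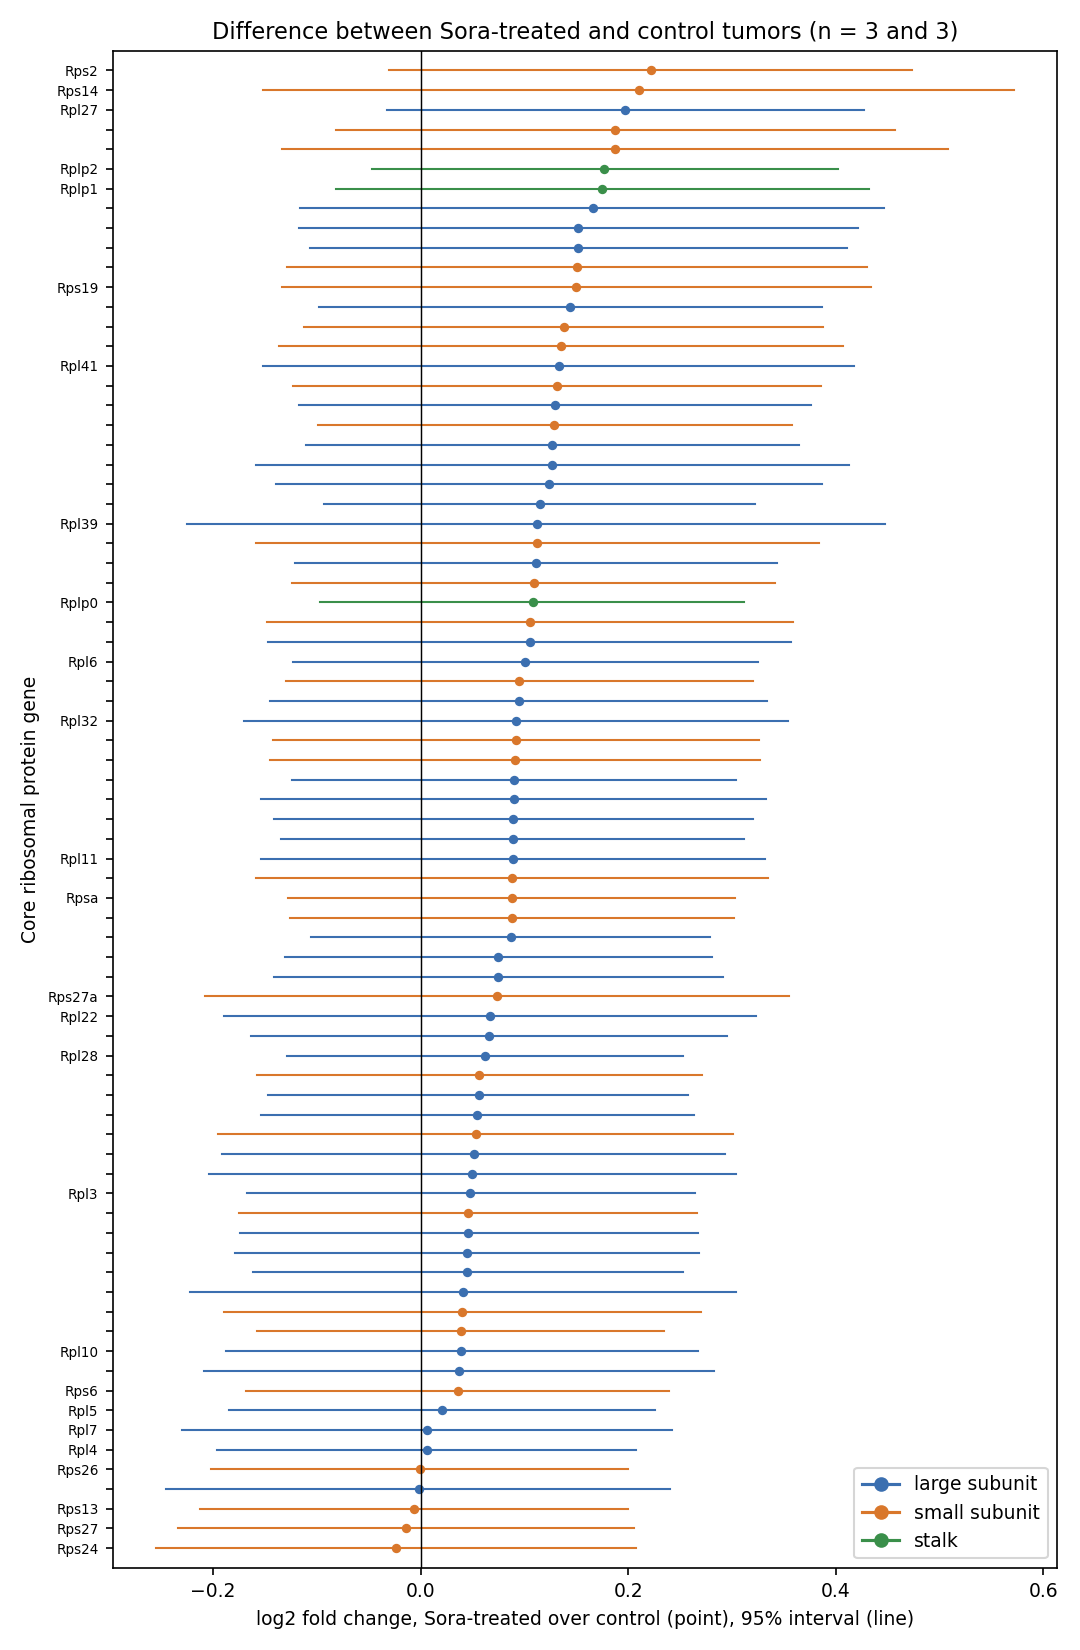
The log2 fold change of each of the 76 core genes (points, Sora-treated over control) with its 95% interval from edgeR (lines), n = 3 tumors per group, colored by subunit, with symbols on the axis for the genes that the text describes by rule and for Rps2 and Rpl27. Every interval includes 0, and the points run from -0.02 (Rps24) to 0.22 (Rps2).

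The count of members above 0 depended on single tumors. It was 54 of 83 without control tumor 4 (50.6% of all genes), with a median log2 fold change of 0.01, and 61 of 83 without Sora-treated tumor 4 (49.4% of all genes), with a median of 0.03. Without control tumor 3 it was 82 of 82 (49.7% of all genes) with a median of 0.20, and 30 members (36.6%) then had an unadjusted p under 0.05, beside 17.3% of all genes. The smallest adjusted p among members in that fit was 0.108 in edgeR, for Rpl27, while 1.94% of all genes were called.

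The member with the smallest p was Rps2, a small subunit protein close to the mRNA entry channel. Rps2 had 1350, 1510, and 1130 CPM in control tumors 1, 3, and 4 and 1540, 1430, and 1680 CPM in Sora-treated tumors 2, 3, and 4. Control tumor 3 was above Sora-treated tumor 3, so the groups overlapped. The log2 fold change was 0.22 ± 0.11 (SE), with an adjusted p of 0.361 in edgeR. Rps2 also has 32 near-identical pseudogene copies, whose reads the counting could have shared with it.
Rps24, Rps27, and Rps13, all of the small subunit, had the lowest estimates. Rps24, which is mutated in some patients with Diamond-Blackfan anemia, had 1230, 1490, and 1260 CPM in control tumors and 1200, 1270, and 1450 CPM in Sora-treated tumors. The log2 fold changes were -0.02 for Rps24, -0.01 for Rps27, and -0.01 for Rps13.

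The core genes differed more between tumors of 1 group than between the groups, and they moved as a block. On the scale of log2(CPM + 1) relative to each gene's mean over the 6 tumors, the median of the 76 core genes was -0.08, 0.15, and -0.21 in control tumors 1, 3, and 4. In Sora-treated tumors 2, 3, and 4 it was -0.02, 0.00, and 0.17. All 76 core genes were above their mean in control tumor 3 and 75 in Sora-treated tumor 4 (the other was Rpl34), while 0 were above it in control tumors 1 and 4.
Control tumor 4 was the lowest and either control tumor 3 or Sora-treated tumor 4 the highest tumor in 72 of 76 core genes (94.7%), against 9.54% of all genes tested. The 4 others were Rpl4, Rps6, Rps24, and Rps27, in which control tumor 4 was not the lowest. A single component held 93.1% of the variance of the core genes over the tumors. The median SD within groups was 0.16 on this log2 scale for core genes and 0.13 for all genes, and after the median of each tumor was subtracted it was 0.05 for core genes. Rps14, a small subunit protein, kept the highest residual SD, at 0.15.

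**Figure D2:**
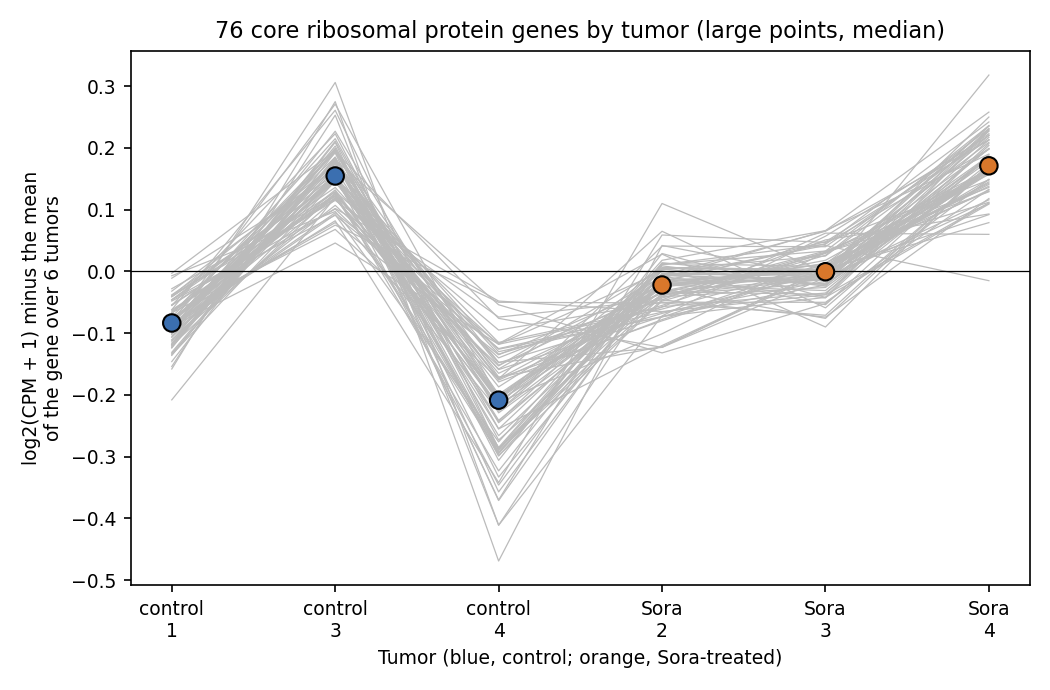
Each gray line is 1 of the 76 core genes, with log2(CPM + 1) minus the mean of that gene over 6 tumors on the y axis, and large points mark the median per tumor (blue, control, and orange, Sora-treated). The medians of control tumor 3 (0.15) and Sora-treated tumor 4 (0.17) lie together above those of the other tumors, and control tumor 4 (-0.21) lies lowest.

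The same differences appeared in the share of the library. Members took 6.91%, 7.74%, and 6.24% of all reads in control tumors 1, 3, and 4. In Sora-treated tumors 2, 3, and 4 this share was 7.06%, 7.18%, and 7.85%. The mean was 6.96% ± 0.753 in control tumors and 7.36% ± 0.428 in Sora-treated tumors (SD, n = 3 each), and the groups overlapped. The difference of 0.397 percentage points lay within the SD of the control tumors, and it was 0.0334 points without control tumor 4, 0.152 without Sora-treated tumor 4, and 0.785 without control tumor 3. The 13 genes of the mitochondrial genome took 2.37%, 1.99%, and 2.33% of the reads in control tumors 1, 3, and 4, compared with 1.94%, 1.98%, and 1.87% in Sora-treated tumors 2, 3, and 4. These groups did not overlap, control tumor 3 was the lowest control and Sora-treated tumor 4 the lowest of all, and the part of this in the block movement was not tested. The balance of the subunits hardly moved, with the large subunit at 59.0% to 59.7% and the small subunit at 39.7% to 40.4% of member reads in each tumor.

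Short transcripts outside the family moved the same way to a smaller extent. The 996 other genes with a deposited length under 1000 bases had median deviations of -0.02, 0.08, and -0.12 in control tumors 1, 3, and 4, compared with 0.00, 0.01, and 0.06 in Sora-treated tumors 2, 3, and 4. In the 7078 genes of at least 4000 bases the medians had the opposite sign in the outer tumors, at -0.03 in control tumor 3, 0.04 in control tumor 4, and -0.03 in Sora-treated tumor 4. The order of tumors seen in 94.7% of core genes held for 25.9% of the other genes under 1000 bases, 16.1% of those from 1000 to 2000 bases, 8.69% of those from 2000 to 4000 bases, and 4.29% of longer genes. It also held for 37.5% of the 8 other mRNAs known to carry a TOP motif, 32.6% of the translation factor genes, and 32.1% of the mitochondrial ribosomal protein genes, whose median length was 1510 bases. The part of transcript length in the block movement was not tested.
Ribosomal proteins whose names fall outside the rule moved with the block, and 5 of 5 such genes had the same order of tumors. Among them were Fau, which encodes a ribosomal protein fused to a ubiquitin-like protein, and the small subunit scaffold Rack1. Fau had 594, 742, and 486 CPM in control tumors and 686, 704, and 797 CPM in Sora-treated tumors, and its adjusted p was 0.357 in edgeR.

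**Figure D3:**
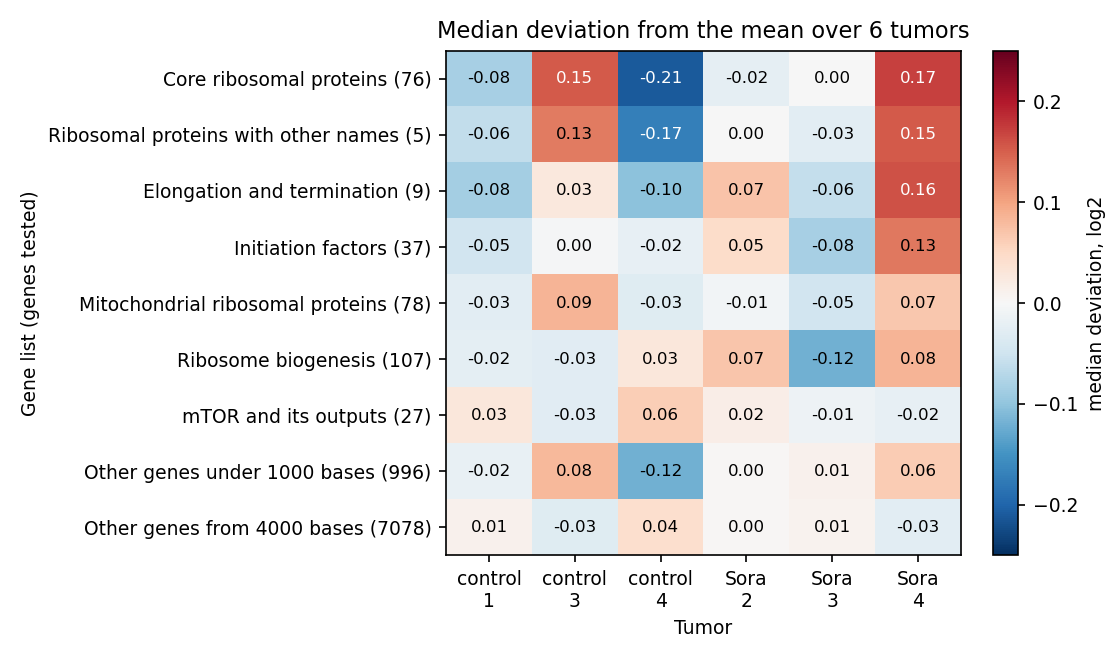
Median deviation (log2) of each gene list (rows, with the number of genes tested) in each tumor (columns) from the mean of each gene over 6 tumors. The core genes range from -0.21 in control tumor 4 to 0.17 in Sora-treated tumor 4, and other short genes show a weaker form of the same order. The row of mTOR and its outputs also holds other regulators, among them Rps6ka1, Mknk1, and Myc.

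Markers of other cell types did not follow that order. It held in 1 of 4 B cell markers, 1 of 11 hepatoma markers, and 0 markers of the 8 other lists. Summed levels did not overlap between groups in 5 lists, which are described here for that reason. Over all genes tested, the groups did not overlap in 22.2%, 3.29% were called, and 49.9% were above 0. The T cell markers summed to 149 to 169 CPM in control tumors and 125 to 133 CPM in Sora-treated tumors, the macrophage markers to 1460 to 1760 and 1230 to 1430 CPM, and the fibroblast markers to 7430 to 7700 and 5240 to 6590 CPM. No gene of these 3 lists was called, 6 of 6 T cell and 6 of 6 macrophage markers were below 0, and in the fibroblast list the collagens Col1a1, Col1a2, and Col3a1 had log2 fold changes of -0.42 to -0.47 while Dcn had 0.03 and Pdgfra -0.03. The neutrophil markers summed to 66.8 to 77.7 CPM in control tumors and 98.9 to 153 CPM in Sora-treated tumors, with 5 of 5 tested members above 0. The red blood cell markers summed to 47.0 to 129 CPM in control tumors and 32.9 to 44.1 CPM in Sora-treated tumors, with 5 of 5 below 0. S100a9 of the neutrophil list was up-regulated and Hba-a1, a hemoglobin gene, down-regulated (adjusted p 0.0424 and 0.0305 in edgeR), and each call was lost without 5 of the 6 tumors in turn. S100a9 was not called in DESeq2 (adjusted p 0.0532) or limma voom (0.0733), its estimate of 1.21 was 0.79 without Sora-treated tumor 2, and Hba-a1 was not called in limma voom (0.0614). The part of cell makeup in the ribosomal protein values was not tested.

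Within the ribosomal protein total, no member passed the test. When each core gene was expressed as a share of the reads on all core genes, 14 of 76 did not overlap between groups (7 higher and 7 lower in Sora-treated tumors). This is 18.4%, beside 13.8% of all genes on the same scale and 22.2% of all genes in CPM. Dividing by the core total takes the block movement out of core genes and puts it into other genes. The 18.4% and 13.8% are therefore not alike, and no conclusion is drawn from them. Rpl27, Rplp1, Rplp2, and Rps2 were among those with a higher share, and Rpl5, Rpl7, Rps13, and Rps24 among those with a lower share.
Rpl27, a large subunit protein, held 0.658%, 0.702%, and 0.712% of core reads in control tumors and 0.752%, 0.741%, and 0.74% of them in Sora-treated tumors. Rps24 held 1.84%, 1.89%, and 2.05% of core reads in control tumors and 1.72%, 1.79%, and 1.81% of them in Sora-treated tumors. The log2 changes of the share ran from -0.12 (Rps24) to 0.13 (Rps2), and in edgeR scaled to the member total 0 members were called (1.85% of all genes), with 0 at an unadjusted p under 0.05 (11.6% of all genes) and a smallest adjusted p of 0.661 (Rps2). That scaling centers the members near 0 by construction, which placed the median of all genes at -0.10.

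The stalk proteins Rplp0, Rplp1, and Rplp2 form the flexible arm of the large subunit that recruits elongation factors. Rplp0 had 2510, 2760, and 2460 CPM in control tumors and 2670, 2670, and 2990 CPM in Sora-treated tumors. Rplp1 had 1130, 1300, and 953 CPM in control tumors and 1200, 1220, and 1400 CPM in Sora-treated tumors. Control tumor 3 was inside the range of the Sora-treated tumors for both genes. Rplp2 had 772, 876, and 679 CPM in control tumors and 833, 860, and 938 CPM in Sora-treated tumors, with control tumor 3 again inside the treated range. The log2 fold changes were 0.11, 0.18, and 0.18 for Rplp0, Rplp1, and Rplp2, with adjusted p of 0.617, 0.494, and 0.419 in edgeR.

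Members with known roles beyond the ribosome had values of the same kind. Rpl5 and Rpl11 bind 5S ribosomal RNA and, when free of the ribosome, hold back Mdm2 and so stabilize p53. Rpl5 had 998, 1140, and 979 CPM in control tumors and 1010, 1010, and 1150 CPM in Sora-treated tumors. Rpl11 had 541, 673, and 502 CPM in control tumors and 576, 592, and 656 CPM in Sora-treated tumors. Both genes were highest in control tumor 3 or Sora-treated tumor 4, with log2 fold changes of 0.02 for Rpl5 and 0.09 for Rpl11.
In the list of 8 genes of the 5S particle and p53, 0 were called in edgeR and 4 were above 0. Over all genes 3.29% were called and 49.9% were above 0. Mdm2, the ubiquitin ligase of p53, had 145, 152, and 162 CPM in control tumors and 198, 171, and 196 CPM in Sora-treated tumors. These groups did not overlap, and the log2 fold change of 0.30 had an adjusted p of 0.0749 in edgeR, and it was under 0.05 in DESeq2 (0.0142), without a filter (0.0441), and without Sora-treated tumor 3 (0.0233). Rpf2, which loads the 5S particle into the pre-ribosome, had the lowest estimate of the list, at -0.15.
Rps6 is the substrate of S6 kinase downstream of mTOR, and its phosphorylation is not visible in RNA. Rps6 had 990, 1100, and 1010 CPM in control tumors and 1010, 991, and 1170 CPM in Sora-treated tumors, and control tumor 3 lay between the treated ones. Rps19, the gene most often mutated in Diamond-Blackfan anemia, had 706, 845, and 572 CPM in control tumors and 741, 753, and 862 CPM in Sora-treated tumors. Rpl10, needed for the last steps of large subunit maturation, had 1290, 1480, and 1180 CPM in control tumors and 1260, 1340, and 1470 CPM in Sora-treated tumors. The log2 fold changes were 0.04 for Rps6, 0.15 for Rps19, and 0.04 for Rpl10, and the groups overlapped in all 3 genes.
Rpsa, a small subunit protein also known as a laminin receptor, had 1930, 2140, and 1850 CPM in control tumors and 2000, 1990, and 2300 CPM in Sora-treated tumors. Rps27a, made as a fusion with ubiquitin, had 778, 954, and 689 CPM in control tumors and 756, 824, and 968 CPM in Sora-treated tumors. Neither separated the groups, with log2 fold changes of 0.09 for Rpsa and 0.07 for Rps27a.

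The spread of the members between tumors of 1 group was uneven. Among members with a mean of at least 100 FPKM, Rps14, Rpl39, and Rpl22l1 varied most, with SDs within groups of 0.29, 0.28, and 0.27 on the log2(CPM + 1) scale. Rps14 had 1170, 1580, and 945 CPM in control tumors and 1350, 1300, and 1630 CPM in Sora-treated tumors. Rpl39, a very small protein at the exit tunnel, had 367, 486, and 295 CPM in control tumors and 374, 409, and 458 CPM in Sora-treated tumors. In both genes the control tumors alone spanned more than 1.5-fold and enclosed 2 of 3 treated values of Rps14 and 3 of 3 of Rpl39.
Rplp0, Rpl4, and Rpl28 varied least, at 0.09, 0.09, and 0.10. Rpl4, a large subunit protein that lines the exit tunnel, had 2060, 2310, and 2080 CPM in control tumors and 2060, 2100, and 2320 CPM in Sora-treated tumors. Rpl28, a large subunit protein with a TOP start, had 774, 857, and 719 CPM in control tumors and 801, 799, and 851 CPM in Sora-treated tumors. The log2 fold change was 0.01 for Rpl4, 0.06 for Rpl28, and 0.11 for Rplp0.

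The members were among the most abundant mRNAs of the tumors. By mean FPKM, the count scaled to the library total and to the gene length, 59 of 76 core genes were among the 100 highest genes and 75 among the 500 highest. Rpl41, which encodes the smallest ribosomal protein, was highest at 3940 ± 470 FPKM (SD over 6 tumors), followed by Rps26 at 2950 ± 134 and Rpl32 at 2880 ± 290. Rps26 and Rpl32 differed by less than their spread. The median of the core genes was 980 FPKM and the lowest was Rpl34 at 105 ± 10.7 FPKM, so levels spanned 37.5-fold.
The length that the FPKM used set part of that span. The deposited length was more than 2 times that of the principal GENCODE M21 transcript in 11 core genes (Rpl15, Rpl18, Rpl19, Rpl21, Rpl22, Rpl31, Rpl34, Rpl36, Rps12, Rps15a, and Rps24). Rps15a, for which the tables imply 5136 bases and whose principal transcript has 640, had 148 FPKM and would have 1190 if the principal transcript set the length. Rps24 went from 670 to 2810 in the same way.
With FPKM recomputed on the principal transcript, the core genes ran from 226 (Rps20) to 4050 (Rpl41) with a median of 1240, which is 17.9-fold, and the SD of the log2 level was 0.73 in place of 1.005 for FPKM. Rps20 has a long transcript on both scales, with a deposited length of 3641 bases and a principal transcript of 3706 bases.

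**Figure D4:**
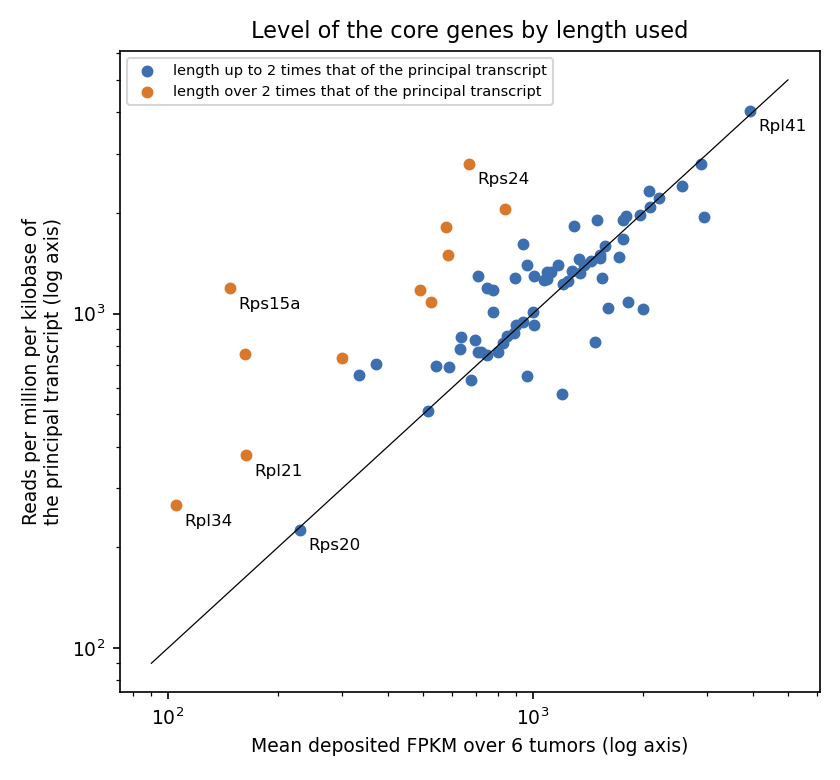
Mean deposited FPKM over 6 tumors (x axis, log) against FPKM recomputed on the length of the principal transcript (y axis, log, labelled as reads scaled to depth and that length) for the 76 core genes, with the line of equal values and 11 genes in orange whose deposited length is over 2 times that of the principal transcript. Rps15a moves from 148 to 1190 and Rps24 from 670 to 2810.

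Pseudogene copies are a limit of these levels. In the GENCODE M21 transcripts, 73 of 83 members had at least 1 pseudogene copy with at least 95% identity over at least 200 aligned bases, with a median of 4 and 591 listed pairs in all. Rpl21 had 60, Rpl7a 38, Rps2 32, Rpl29 31, Rpl17 25, Rps12 21, and Rpl23a 20 copies. The rows named as pseudogenes of the family (10 rows ending in -ps and a number) took 0.0208% to 0.0318% of the reads in each tumor. Over the core genes, the number of copies and the level on the principal transcript had a Spearman correlation of -0.01, and the number of copies and the deposited FPKM one of -0.20, as a description across genes that share the libraries. The study's methods name an expectation maximization algorithm for the FPKM, but each FPKM here follows from a whole count, 1 length per gene, and the library total, and how the counts treated reads that match several places is not given in the sources used here. The levels of members with many copies are therefore uncertain.

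The paralogs ranged from traces to more than their core partner. Rpl22l1, a close relative of the RNA-binding large subunit protein Rpl22, had 391, 399, and 268 FPKM in control tumors and 333, 319, and 398 FPKM in Sora-treated tumors. Rpl22 had 160, 184, and 134 FPKM in control tumors and 158, 167, and 172 FPKM in Sora-treated tumors. Rpl22l1 thus stood at 216% of Rpl22 over the means, and at 191% to 245% in single tumors.
That ratio depends on the lengths, because the deposited length of Rpl22 is 2208 bases and its principal transcript has 474. With FPKM recomputed on the principal transcript, Rpl22l1 was at 325 and Rpl22 at 757, which turns the order of these genes around.
Rpl6l, a locus that GENCODE M21 lists as a processed pseudogene, had 74.4, 78.7, and 74.9 FPKM in control tumors and 79.8, 80.4, and 88.4 FPKM in Sora-treated tumors. The groups did not overlap in FPKM but did in CPM (68.5, 76.1, and 70.2 against 74.9, 75.3, and 86.0). Its log2 fold change was 0.14, with an adjusted p of 0.441 in edgeR, and its level was 12.6% of that of Rpl6. Rpl6l has 4 near-identical pseudogene copies and is itself near-identical to Rpl6, so the share of its reads that came from Rpl6 or a copy is unknown.
Rps27l, a p53-induced relative of Rps27, had 112, 127, and 94.5 CPM in control tumors and 109, 104, and 121 CPM in Sora-treated tumors. Rpl7l1, a relative of Rpl7 that takes part in ribosome assembly, had 75.6, 78.1, and 84.1 CPM in control tumors and 89.0, 75.4, and 84.9 CPM in Sora-treated tumors. The groups overlapped in both genes, with log2 fold changes of 0.00 for Rps27l and 0.07 for Rpl7l1. In FPKM they stood at 2.56% of Rps27 and 1.5% of Rpl7, and on the length of the principal transcripts at 14% of Rps27 and 2.67% of Rpl7.
The 3 lowest paralogs had the 3 highest estimates of the family in the fit of all 6 tumors. Rpl3l, a form of Rpl3 known from heart and skeletal muscle, had 7, 11, and 4 reads in control tumors and 10, 16, and 9 reads after Sora, which is 0.0196% of Rpl3 in FPKM and 0.0273% on the principal transcripts. Rpl32l, which GENCODE M21 lists as a processed pseudogene, had 44, 19, and 40 reads in control tumors and 54, 45, and 43 reads after Sora. Rpl39l, a form of Rpl39 known from the testis and some tumors, had 52, 63, and 80 reads in control tumors and 96, 92, and 63 reads after Sora.
At these counts the errors were wide and the groups overlapped. The log2 fold changes were 0.69 ± 0.55 for Rpl3l, 0.51 ± 0.37 for Rpl32l, and 0.42 ± 0.28 for Rpl39l (SE), with adjusted p of 0.583, 0.537, and 0.494 in edgeR. Single tumors moved them by more than 1.5 times. Rpl3l was at 0.35 without control tumor 4, Rpl39l at 0.28 without Sora-treated tumor 2, and Rpl32l at 0.24 without control tumor 3, where Rps14 was higher at 0.43. On log2(FPKM + 1) over all genes, where the pseudocount outweighs low values, Rpl3l was at 0.09. Rpl32l is also near-identical to Rpl32. Skeletal muscle markers summed to 160 to 223 CPM in control tumors and 182 to 253 CPM in Sora-treated tumors, and their part in the Rpl3l reads was not tested.

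**Figure D5:**
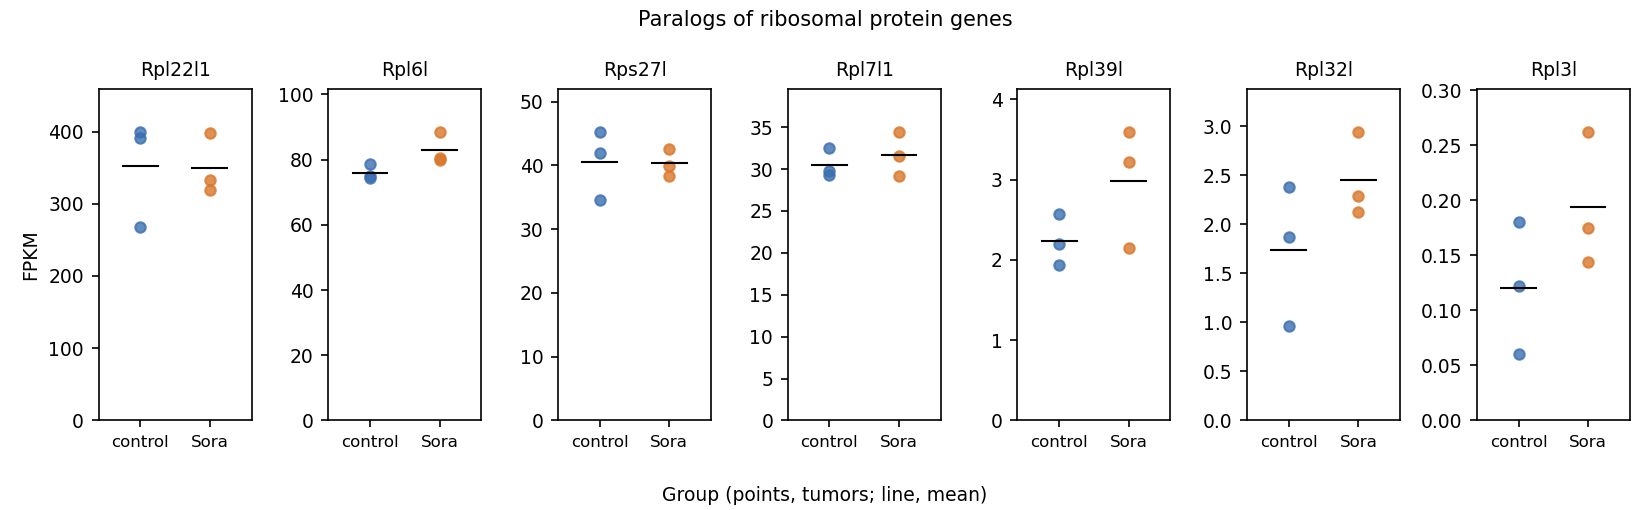
FPKM of the 7 paralogs in each tumor (points) with the mean per group (line), 3 control and 3 Sora-treated tumors, on a separate y axis from 0 for each gene. The groups overlap in 6 of the 7 panels, and Rpl6l is separate in FPKM (control up to 78.7, Sora-treated from 79.8) but not in CPM.

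The machinery around the cytosolic ribosome was compared through lists written from general knowledge. The 78 mitochondrial ribosomal protein genes, whose products form the separate ribosome of mitochondria, had a median log2 fold change of 0, with 39 above 0 (50%) and 0 called in edgeR (4 at an unadjusted p under 0.05). Over all genes 49.9% were above 0, 3.29% were called, and 17.2% had an unadjusted p under 0.05. Mrpl9 had the highest estimate, 0.25, and Mrpl42 the lowest, -0.26, with adjusted p of 0.164 and 0.133 in edgeR. Among the 46 translation factor genes 34 were above 0 (73.9%), with a median of 0.06 and 0 called (6 at an unadjusted p under 0.05). Eif5a, which helps the ribosome through difficult peptide bonds, had 751, 834, and 765 CPM in control tumors and 997, 790, and 1020 CPM in Sora-treated tumors, a log2 fold change of 0.26 with an adjusted p of 0.232 in edgeR, and 0.0377 without Sora-treated tumor 3.
The other ends of the factor lists were small. Eif6, which keeps the subunits apart until the large one is mature, had a log2 fold change of 0.25. Eif4a2, an RNA helicase of initiation, had -0.11. Eef1a1, which brings tRNA to the ribosome, had -0.03 at 8490 ± 303 CPM in control tumors and 8300 ± 501 CPM in Sora-treated tumors.
The 107 ribosome biogenesis genes tested had 68 above 0 (63.6%), a median of 0.03, and 0 called in edgeR (6 at an unadjusted p under 0.05). Polr1d, a subunit shared by RNA polymerases I and III, had 137, 162, and 119 CPM in control tumors and 177, 162, and 206 CPM in Sora-treated tumors, and its log2 fold change of 0.38 had an adjusted p of 0.114 in edgeR (0.0198 in DESeq2 and 0.0242 without a filter). Polr1f, a subunit of RNA polymerase I, had -0.17.
The other mRNAs known to carry a TOP motif had 8 of 8 genes above 0 with a median of 0.05 and 0 called, from 0.01 for Btf3 to 0.13 for Hnrnpa1.

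The list of mTOR and its outputs also held other regulators, among them Rps6ka1, Mknk1, and Myc. It had 11 of 27 genes above 0, beside 49.9% of all genes, and a median of -0.02. Eif4ebp1 was up-regulated and Deptor down-regulated. Over all genes 3.29% were called, and the groups did not overlap in 22.2%. Eif4ebp1, the translation repressor that mTOR inactivates, had 80.7, 100, and 89.9 CPM in control tumors and 122, 112, and 131 CPM in Sora-treated tumors. Deptor, an inhibitor bound to mTOR, had 95.7, 91.1, and 103 CPM in control tumors and 32.9, 64.0, and 30.9 CPM in Sora-treated tumors. The groups did not overlap in either gene, with log2 fold changes of 0.43 for Eif4ebp1 (adjusted p 0.0389) and -1.18 for Deptor (adjusted p 0.0217) in edgeR.
Both calls were lost without control tumor 1 or 4 or Sora-treated tumor 2 or 4, where the adjusted p in edgeR lay between 0.0542 and 0.179, and both held without control tumor 3 or Sora-treated tumor 3. Mtor itself had 44.5 ± 2.83 CPM in control tumors and 45.5 ± 0.951 CPM in Sora-treated tumors, and Larp1 had 375 ± 12.1 and 376 ± 15 CPM (SD, n = 3 each).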

How the data were processed

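Whole-tumor RNA of 3 control and 3 Sora-treated tumors was sequenced on a BGISEQ-500, with 1 library per tumor. The authors deposited counts (whole reads per gene, not normalized) for 5 tumors and FPKM (the count per kilobase of the gene, scaled to the total) for all 6. The submitters' processing notes name fastp, HISAT2, HTSeq, R 3.2.0, DESeq2, and GRCm39 without roles, whereas the study's methods name Bowtie2 and GRCm38. The build is therefore uncertain and no gene coordinates are given from the tables. Annotation, strand use, and filters are not given in the sources used here, so overlapping and antisense genes cannot be told apart.

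Counts for Sora-treated tumor 4 were derived from the FPKM column and from lengths implied by the remaining tumors, and 100% came out whole within 0.001 reads. The same step returned the counts of the 5 known tumors exactly (20969 to 21229 genes each), and 342 genes with 512 reads (0.0015% of the total) could not be recovered. The 16513 genes that had 10 or more counts in 3 or more tumors were tested with edgeR 4.0.16 in R 4.3.3 (quasi-likelihood test, TMM, Benjamini-Hochberg adjustment over all genes tested, threshold 0.05), and the script was tested on simulated data. Counting error bears most on Rpl3l, Rpl32l, and Rpl39l, which had the fewest reads. Pseudogene copies were searched with blastn among GENCODE M21 transcripts.

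Members and lists were chosen with earlier results of these data known. Named members were those called, the 3 largest rises and falls, the 3 highest and lowest levels, paralogs with their core genes, stalk genes, 7 genes of known role, and the 3 most and least variable members of at least 100 FPKM. In the lists of the translation machinery, called genes and the extremes were named, and in the marker lists the called genes. Apoa2, Fgg, and Trf of the hepatoma list were added after their values were seen. Rps2, Rpl27, Rpl34, Rps15a, Rps20, the genes shown by sequence, the genes with many copies, Fau, Rack1, the fibroblast markers, Mtor, Larp1, Afp, and Alb were named after their values were seen. Alternatives were DESeq2 1.42.0, limma 3.58.1 (voom, and log2(FPKM + 1) or log2(FPKM + 0.1)), other scalings and filters, a replicate block, and leaving out each tumor. Scaling to the member total and the length of the principal transcript were added after the data were seen. Some genes are not reported here.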

Additional observations from a re-analysis of the deposited data

How the results depend on the processing

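In the 18 other settings fitted, 0 members were called. The share of all genes called ran from 0% with log2(FPKM + 1) and no filter to 7.71% in DESeq2. It was 0.0306% without Sora-treated tumor 4 and 0.309% with log2(FPKM + 0.1). Where so few genes were called, 0 members says little. The count of members above 0 was 74 to 79 under the other tests, filters, units, and scalings across all genes, and 54 to 82 when 1 tumor was left out, and the median log2 fold change was 0.08 to 0.12 and 0.01 to 0.20, respectively. Scaling to the member total, a choice made after seeing the data, centers the members by construction and is left out of these ranges. The medians ranged, when 1 tumor was left out, from -0.03 to 0.06 for mitochondrial ribosomal proteins, 0.00 to 0.09 for ribosome biogenesis, and 0.01 to 0.11 for translation factors. The difference in the share of the library was 0.0334 to 0.785 percentage points when 1 tumor was left out, 0.383 without genes of the mitochondrial genome, 0.431 with the genes outside the rule and the pseudogene rows, and 1.06 percentage points on summed FPKM, where short genes weigh more.

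The groups share 2 replicate numbers (tumors 3 and 4), and the correlations of the deviations in these pairs were -0.03 and -0.07. Tumors with different numbers ran from -0.157 to 0.259. The correlations therefore cannot show whether a shared number marks a pair. Control tumor 1 and Sora-treated tumor 2 share no number with the other group. A fit with the number as a block therefore takes the group difference from tumors 3 and 4 only, fewer than the main test. With this replicate block, 0 members were called, 79 were above 0, and the median log2 fold change was 0.12. The smallest adjusted p in edgeR was 0.876. The estimate for Rpl39l was 0.15 with the block. Among all genes the block left 125 calls in place of 543. The block ended the calls of Eif4ebp1 (adjusted p 0.351), Alb (0.236), S100a9 (0.228), Hnf4a (0.0788), Apoa1 (0.062), and Hba-a1 (0.0554) in edgeR, and those of Deptor and Ttr held. On FPKM, the calls of Alb, Apoa1, Hba-a1, and S100a9 were lost in all 3 settings, that of Hnf4a in 2, and that of Ttr in 1. Over the 14 settings on counts, the adjusted p ranged from 1.07e-05 to 0.113 for Deptor and from 0.0012 to 0.351 for Eif4ebp1, and both calls were lost on FPKM. The cause was not tested. Counts over all genes varied widely, from 0 with log2(FPKM + 1) and no filter to 1194 in DESeq2.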
